A study of Mus musculus with 8 samples.

Results

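Reelin signalling in the juvenile mouse ovary was described through the 4 genes *Reln*, *Vldlr*, *Lrp8* and *Dab1*, picked by symbol from the 45583 gene symbols of the count table. The genes were picked with earlier results of these data known, and *Dab1* was picked for its own read counts in the libraries labelled GOAT KO and WT. For that reason the values of the 4 genes in the 2 groups are given as a description, and no p is printed for them. Whether they pass the study's threshold, which includes an unadjusted p, is stated as a description too. Ovaries were taken from 3-week-old female mice of the C57/Bl6 strain, of which 4 were labelled WT and 4 were labelled GOAT KO. The enzyme GOAT (ghrelin O-acyltransferase, encoded by *Mboat4*) attaches the acyl group to the hormone ghrelin. The GOAT KO mice carry a deletion of this gene and were littermates of the WT mice, from crosses between heterozygous parents, and the labels give no treatment for either group. Each library held the total RNA of 1 whole ovary of 1 animal, read as single reads of 50 bp.

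Reelin, the product of *Reln*, is a large secreted glycoprotein best known for guiding the layering of neurons in the developing brain. It binds the lipoprotein receptors VLDLR and APOER2, the second of which is encoded by *Lrp8*, and the receptors then bring the adaptor protein DAB1 to the membrane, where kinases of the SRC family phosphorylate it. Phosphorylated DAB1 passes the signal to PI3 kinase, to CRK proteins and to regulators of the cytoskeleton, and is then broken down. In the ovary, reelin is known from theca cells and its receptors from granulosa cells of growing follicles.

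The gene that GOAT deletion targets did not separate the groups in the labelled direction. *Mboat4* had 1, 1, 1 and 3 read counts in the libraries labelled WT and 5, 7, 7 and 8 in those labelled GOAT KO, and every direction here is given by the labels. The position of the deletion within the gene was not used here, so these reads cannot show whether they come from deleted sequence. Total counts on genes ran from 16147216 to 19481798 per library. The labelled tissue was borne out by its markers: summed CPM (read counts scaled to library size by the TMM method) of 7 oocyte genes ran from 928 to 1133, and that of 5 granulosa genes from 3725 to 4751. WT 1120 and GOAT KO 1139 stood farther from the libraries of their own group than any other library of that group did. Results for the members, the pathway list and the neighbours that rest on them are therefore also given without them. The summed CPM of 3 fat cell genes was 159.4 in GOAT KO 1139, 13.2 to 18.1 in the other libraries labelled GOAT KO and 7.0 to 15.3 in WT. All 3 were called higher, as were 0.958% of all genes tested, and these calls are not given without GOAT KO 1139. In bulk ovary, fewer cells of a type and less RNA per cell cannot be told apart.

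The main contrast was in the adaptor. *Dab1* lay 6.50-fold higher in the libraries labelled GOAT KO than in those labelled WT, while the ligand gene and both receptor genes overlapped between the groups. The 6.50-fold value compares 6.48 ± 1.51 CPM (SD, n = 4) with 0.994 ± 0.085 CPM (SD, n = 4). The study's threshold, an unadjusted p under 0.05 with a log2 fold change beyond 0.5 in either direction, was passed by none of 48 other genes of the pathway and by 1.67% of all genes tested, and 1 of the 48 passed it when GOAT KO 1146, or WT 1120 and GOAT KO 1139 together, were left out. The splice junction reads of *Dab1* fell in the last 139.4 kb of a gene that spans 1125 kb of chromosome 4.

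A few joins between coding exons of *Dab1* that carried reads are shown because they mark where along the gene splicing was read. They were read from the longest of its 8 transcripts in the GENCODE annotation (GRCm38, chromosome 4, plus strand), and capitals mark the downstream exon. The first lies at chr4:104605408-104613198, the second at chr4:104678804-104679482 and the third at chr4:104728079-104731654, each with the intron between the exons left out.
Dab1 exons 3 and 4: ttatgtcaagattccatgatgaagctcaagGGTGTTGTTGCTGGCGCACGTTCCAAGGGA
Dab1 exons 5 and 6: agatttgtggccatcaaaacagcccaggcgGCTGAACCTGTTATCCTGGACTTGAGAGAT
Dab1 exons 12 and 13: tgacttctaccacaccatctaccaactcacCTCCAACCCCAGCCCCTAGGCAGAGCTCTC

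The receptor side of the same contact is shown by the codons of the NPxY motif, the stretch of the receptor tail that the phosphotyrosine-binding domain of DAB1 is known to bind. Searched in the coding frame of 1 transcript of each gene, the motif occurred 1 time in *Vldlr* (chr19:27247922-27247969, plus strand) and 1 time in *Lrp8* (chr4:107869043-107869090, plus strand). Capitals mark the 12 bases of the motif.
Vldlr tail: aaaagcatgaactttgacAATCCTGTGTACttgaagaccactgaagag
Lrp8 tail: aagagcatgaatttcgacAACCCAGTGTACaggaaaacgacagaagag
The receptor sequences were identical at 38 of 48 bases, and at 10 of the 12 bases of the motif.

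*Reln*, the ligand gene (chr5:21884454-22344702, minus strand), was the most abundant of the 4 genes by reads, above 92.5% of the 16601 genes tested. It was measured at 225.9, 249.9, 82.5 and 240.3 CPM in WT 1118, 1119, 1120 and 1121. In the libraries labelled GOAT KO it was measured at 95.9 CPM in 1139, 217.6 in 1140, 126.7 in 1141 and 125.2 in 1146. The groups overlapped, since WT 1120 was the lowest of all libraries and GOAT KO 1140 lay close to the other 3 WT libraries. The mean was 199.7 ± 78.7 CPM (SD, n = 4) for WT and 141.4 ± 52.8 CPM (SD, n = 4) for GOAT KO. The log2 fold change of GOAT KO over WT was -0.50 (SE 0.325, 95% interval -1.21 to 0.22), and *Reln* did not pass the study's threshold. It did pass as lower in GOAT KO in 3 of 12 alternatives, at -0.76 without WT 1120, at -0.78 without GOAT KO 1140 and at -0.61 without WT 1120 and GOAT KO 1139. Each of these leaves out its lowest WT library or its highest GOAT KO library, so nothing further was read from the calls. Of all genes tested, 437 of 16767 were called without WT 1120 and 319 of 16832 without GOAT KO 1140. Without WT 1120 and GOAT KO 1139 together, 398 of 16641 were called.

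*Vldlr*, which encodes the very low density lipoprotein receptor (chr19:27216484-27254231, plus strand), varied least between libraries, with a highest value 1.48 times its lowest. It was measured at 93.5, 106.6, 93.2 and 122.5 CPM in WT 1118 to 1121, and at 86.3, 82.6, 94.1 and 112.9 CPM in GOAT KO 1139, 1140, 1141 and 1146. The groups overlapped in part, with GOAT KO 1139 and 1140 below every WT library and WT 1121 above every GOAT KO library. The log2 fold change was -0.15 (SE 0.112, 95% interval -0.39 to 0.10), and it ran from -0.25 without GOAT KO 1146 to -0.06 without WT 1121.

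*Lrp8*, the gene of APOER2 (chr4:107802261-107876840, plus strand), was measured at 8.92, 11.4, 43.6 and 15.3 CPM in WT 1118 to 1121. In GOAT KO 1139, 1140, 1141 and 1146 it was measured at 20.3, 7.39, 12.1 and 21.2 CPM. WT 1120 alone lay above all libraries labelled GOAT KO, and the groups overlapped. The log2 fold change was -0.38 (SE 0.476, 95% interval -1.43 to 0.67) with all libraries, 0.35 without WT 1120 and 0.19 without WT 1120 and GOAT KO 1139. The sign of the *Lrp8* contrast was therefore set by 1 library.

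WT 1120 held both the lowest *Reln* and the highest *Lrp8* of the 8 libraries. The 4 libraries with *Reln* between 82.5 and 126.7 CPM were WT 1120 and GOAT KO 1139, 1141 and 1146, and their *Lrp8* lay between 12.1 and 43.6 CPM. In the other 4 libraries, with *Reln* between 217.6 and 249.9 CPM, *Lrp8* lay between 7.39 and 15.3 CPM. Because the *Reln* values fall into separate clusters of 4 libraries, no correlation over all 8 was computed, and the relation was not tested. *Cyp17a1*, a theca cell enzyme of androgen synthesis and one of the markers listed, was measured at 355.0 CPM in WT 1120, 600.8 in GOAT KO 1139 and 137.7 in GOAT KO 1146, against 42.4 to 58.7 in the other 5 libraries. The summed CPM of its list of 6 theca and steroidogenic genes ran from 1967 to 3118 in WT and from 2493 to 3165 in GOAT KO, highest in those same libraries labelled WT 1120 and GOAT KO 1139, and none of the 6 was called or at 0. *Cyp17a1* was singled out from this list after its values were seen, and the list did not all run with it. *Star* was also highest of its group in WT 1120 (31.9 CPM) and in GOAT KO 1139 (233.5). *Hsd3b1*, in contrast, was lower in GOAT KO 1139 (1851) than in the other libraries labelled GOAT KO (2131 to 2284). *Lhcgr* was lower in WT 1120 (31.8) than in WT 1118 (36.6). The part of theca and steroidogenic cells in the *Reln* and *Lrp8* values was not tested.

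**Figure D1:**
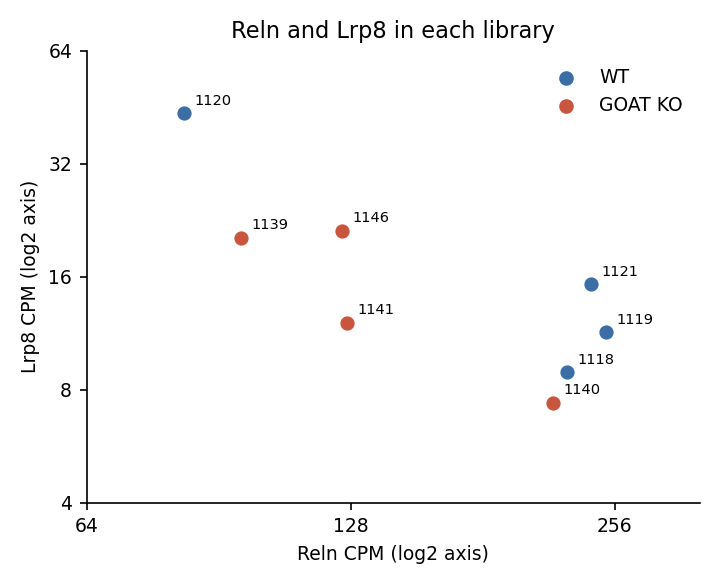
*Reln* CPM (x axis) and *Lrp8* CPM (y axis) of each of the 8 libraries, both on log2 axes, with the animal number beside each point and the group by colour. WT 1120 lies at the upper left with the lowest *Reln* (82.5) and the highest *Lrp8* (43.6), and GOAT KO 1140 lies at the lower right beside the other 3 WT libraries.

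*Dab1*, the adaptor gene (chr4:103619359-104744844, plus strand), had 18, 17, 18 and 17 read counts in WT 1118 to 1121, or 1.11, 0.945, 0.988 and 0.927 CPM. In GOAT KO 1139, 1140, 1141 and 1146 it had 116, 76, 119 and 142 read counts, or 6.94, 4.64, 6.09 and 8.25 CPM. The lowest library labelled GOAT KO was above the highest labelled WT. The log2 fold change was 2.70 (SE 0.208, 95% interval 2.24 to 3.16), and leaving out any 1 library kept it between 2.56 and 2.83. Of the 16601 genes tested, 0.958% passed the study's threshold as higher in GOAT KO and 0.717% as lower, while 0.0241% had an adjusted p under 0.05. *Dab1* is in the called group by the choice that put it here, and nothing further was read from its call. With all libraries *Reln*, *Vldlr* and *Lrp8* were not called, and *Vldlr* and *Lrp8* were called in none of the 12 alternatives.

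Markers of neurons and glia, the cells in which *Dab1* is best known, were close between the groups. The summed CPM of 4 neuron genes was 24.9 ± 2.81 (SD, n = 4) in WT and 23.0 ± 1.09 (SD, n = 4) in GOAT KO, and that of 4 glia genes was 68.2 ± 7.29 and 72.6 ± 14.6. No gene of either list was called in either direction. None of the lists of oocyte, granulosa, theca, stroma, endothelium, surface epithelium, leukocyte and oviduct markers held a called gene.

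**Figure D2:**
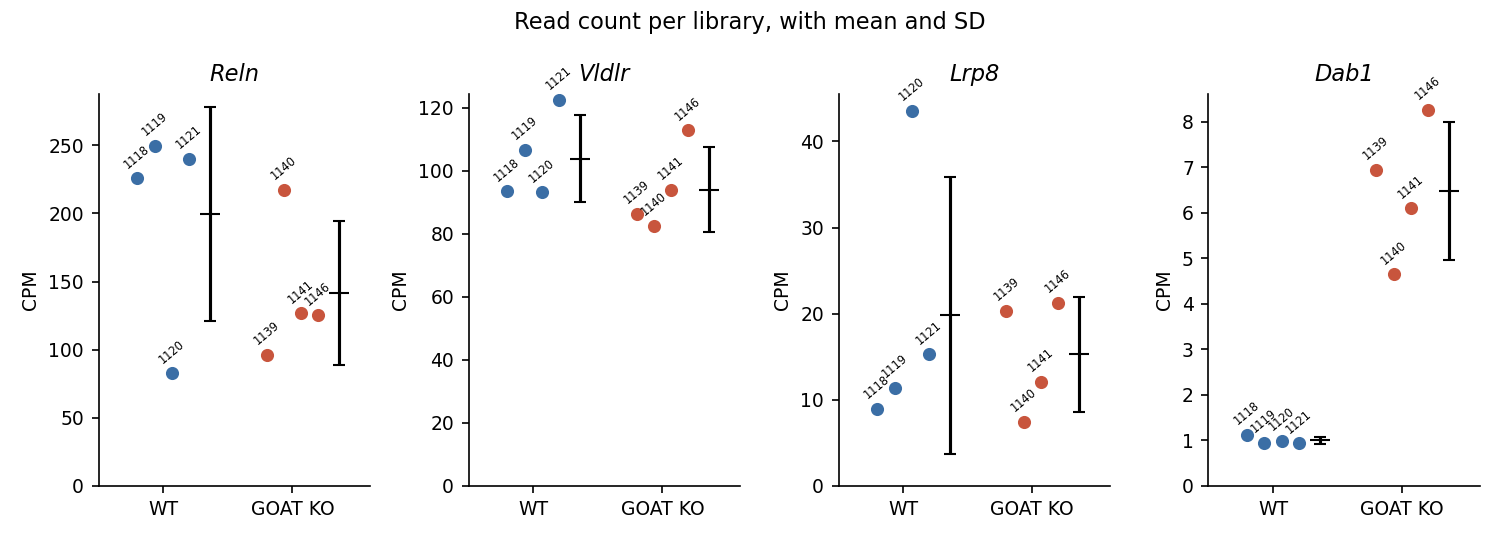
CPM of *Reln*, *Vldlr*, *Lrp8* and *Dab1* (y axes, each from 0) in the 4 libraries labelled WT and the 4 labelled GOAT KO, 1 point per library with its animal number. Black bars give the mean ± SD of each group, and the groups are apart for *Dab1* (0.927 to 1.11 against 4.64 to 8.25 CPM) and overlap for the other 3 genes.

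Levels of the 4 genes were compared as CPM per kilobase of exon, counted over the union of all annotated exons. In WT the order of these levels was *Vldlr* (10.3 ± 1.38, SD, n = 4), *Reln* (8.41 ± 3.32), *Lrp8* (1.88 ± 1.53) and *Dab1* (0.126 ± 0.0107). *Vldlr* and *Reln* overlapped in WT, as did *Reln* and *Lrp8* through WT 1120, whereas *Dab1* lay below the lowest *Lrp8* value. In GOAT KO the order of levels was the same, at 9.33 ± 1.34 for *Vldlr*, 5.96 ± 2.22 for *Reln*, 1.45 ± 0.634 for *Lrp8* and 0.820 ± 0.191 for *Dab1*. There the *Dab1* values overlapped those of *Lrp8*. With the length of the longest transcript in place of the union, *Reln* stood above *Vldlr* in both groups, at 17.1 against 13.0 in WT and 12.1 against 11.8 in GOAT KO.

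Splice junction reads showed where along *Dab1* splicing was seen. The gene has annotated start regions at its 5′ end and 748.2 kb further in, and in the longest transcript the start codon lies in exon 2, 859.9 kb from the gene start. A total of 28 reads crossed 11 junctions on the gene's own strand, 2 of them in libraries labelled WT and 26 in those labelled GOAT KO. The share in GOAT KO was 92.9% (exact Clopper-Pearson 95% interval 76.5 to 99.1), which covers counting error only and describes the contrast that picked the gene. Library by library there were 1, 0, 0 and 1 such reads in WT 1118 to 1121 and 7, 2, 4 and 13 in GOAT KO 1139, 1140, 1141 and 1146. By counting error alone, the 2 libraries at 0, WT 1119 and WT 1120, allow up to 3 reads each, against 2 to 13 reads in GOAT KO. Junctions with reads can also be missing from a library in these files, as given below, so 3 reads is not an upper bound.

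The sense reads ran from 986 to 1112 kb from the gene start, from the join of exons 3 and 4 to the join of exons 12 and 13. The join of exons 3 and 4 had 2 reads, both in GOAT KO 1139. The join of exons 5 and 6 had 6 reads, from GOAT KO 1140, 1141 and 1146, and no other join was read in more of the libraries. The join of exons 12 and 13 had 5 reads, all in GOAT KO 1146. These are the joins printed above, and all of them lie in coding sequence. The reads in WT were 1 across the join of exons 11 and 12 in WT 1121 and 1 across an unannotated junction into exon 12 in WT 1118.

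No read crossed any of the 9 annotated introns that begin upstream of exon 3, which include those of the noncoding first exons. The start region in use was therefore not detectable from the junction reads listed. Of the 28 sense reads, 23 lay on 8 annotated introns and 5 on 3 unannotated ones. The short exon 7, with 39 bases, had 2 reads on its 5′ side and was skipped, together with exon 8, by 1 read of a join annotated in another transcript. A further 7 reads crossed 3 unannotated junctions that carry the splice motif of the opposite strand, 4 of them in GOAT KO 1139 and 1 in each of the other 3 libraries labelled GOAT KO. No such antisense read was listed in WT. Whether reads were counted by strand is not given in the sources used here, so antisense RNA and *Dab1* RNA within the exons cannot be told apart in the read counts.

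**Figure D3:**
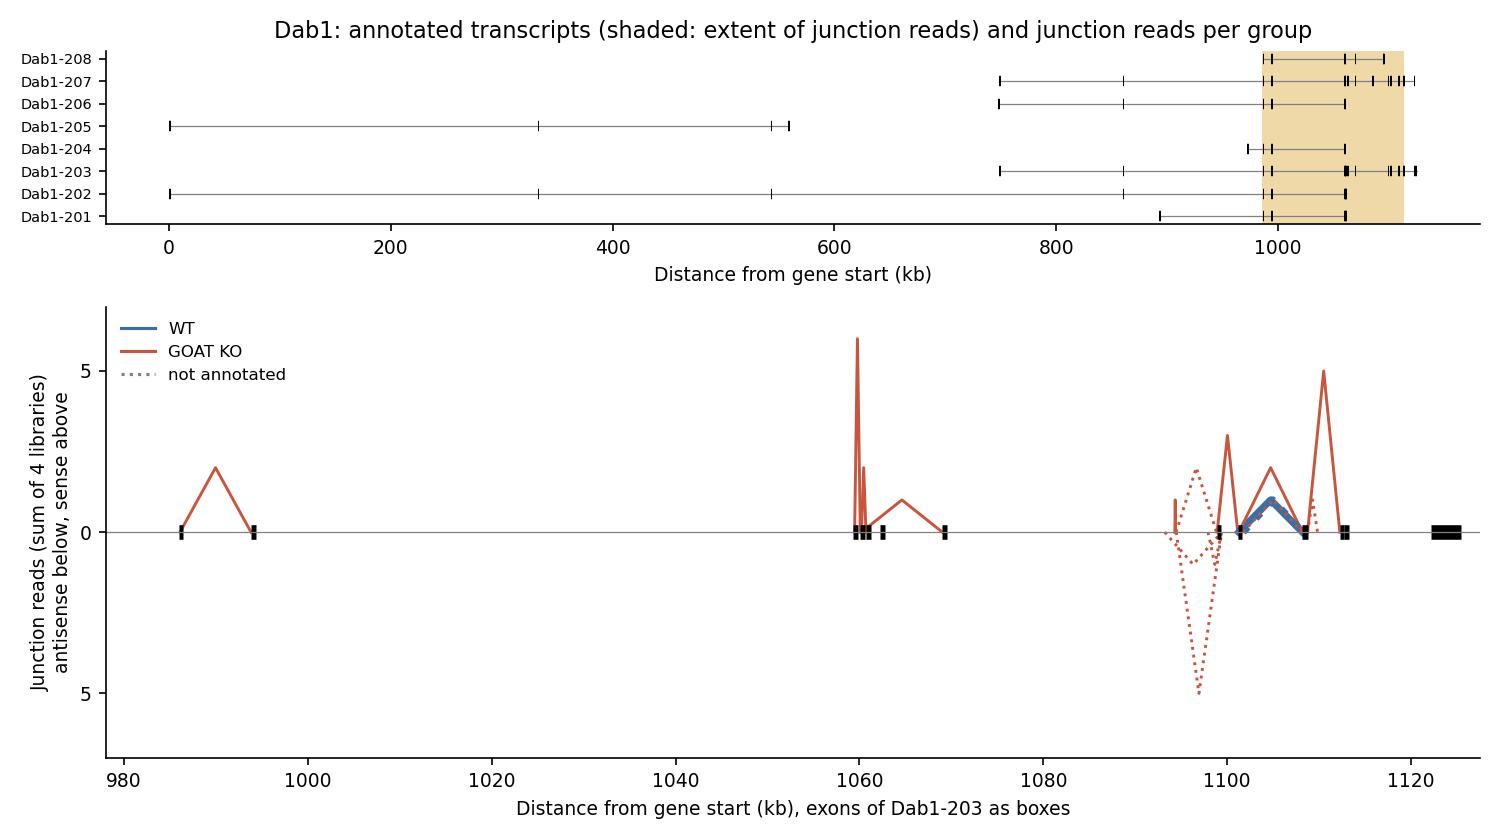
Upper panel, the exons of the 8 annotated *Dab1* transcripts against distance from the gene start in kb, with the extent of all junction reads shaded; short exons are drawn wider than scale. Lower panel, each junction as a peak whose height is its reads summed over the 4 libraries of a group, sense above and antisense below the line, dotted where not annotated; the join of exons 5 and 6 is highest with 6 reads, and the reads in WT are 2.

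The number of junction reads per read count differed between the genes. Per 100 read counts on the gene, *Reln* had 19.1 sense junction reads in WT and 18.2 in GOAT KO, *Vldlr* 11.5 and 11.7, *Lrp8* 7.73 and 10.1, and *Dab1* 2.86 and 5.74. The value for *Dab1* in WT rests on 2 reads. The longest transcript of *Reln* has 64 introns in 11.7 kb and that of *Dab1* 14 in 5.28 kb, so these values do not compare how fully the genes are spliced. *Reln* reads spread over the whole transcript, and 60 of the 64 introns of its longest transcript had reads. A further 311 reads, 197 in WT and 114 in GOAT KO, joined exon 63 to exon 65 as another annotated transcript does, and so passed over exon 64, which has 6 bases. This join was listed in all 8 libraries, and no read entered or left exon 64, although how reads of 50 bp align across an exon of 6 bases was not checked. With these reads counted, the first 32 introns held 30.7% of the *Reln* reads in WT (Clopper-Pearson 95% interval 28.98 to 32.51) and 29.5% in GOAT KO (27.4 to 31.7), and the intervals of this lean to the 3′ end overlapped. In the longest transcript of *Vldlr* all 18 introns had reads, and in that of *Lrp8* 14 of 15.

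A junction at 0 in a library is weak evidence of absence in these files. Of 39501 junctions with at least 30 reads in some library, 14.7% were not listed in at least 1 other library. Among annotated junctions with at least 10 reads in a library, 34 of 49 in *Reln*, 10 of 16 in *Vldlr* and 2 of 2 in *Lrp8* were missing from another library. For this reason reads are pooled over libraries for the exons below, no exon reached 10 reads in every library, and no test of skipping was made.

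**Figure D4:**
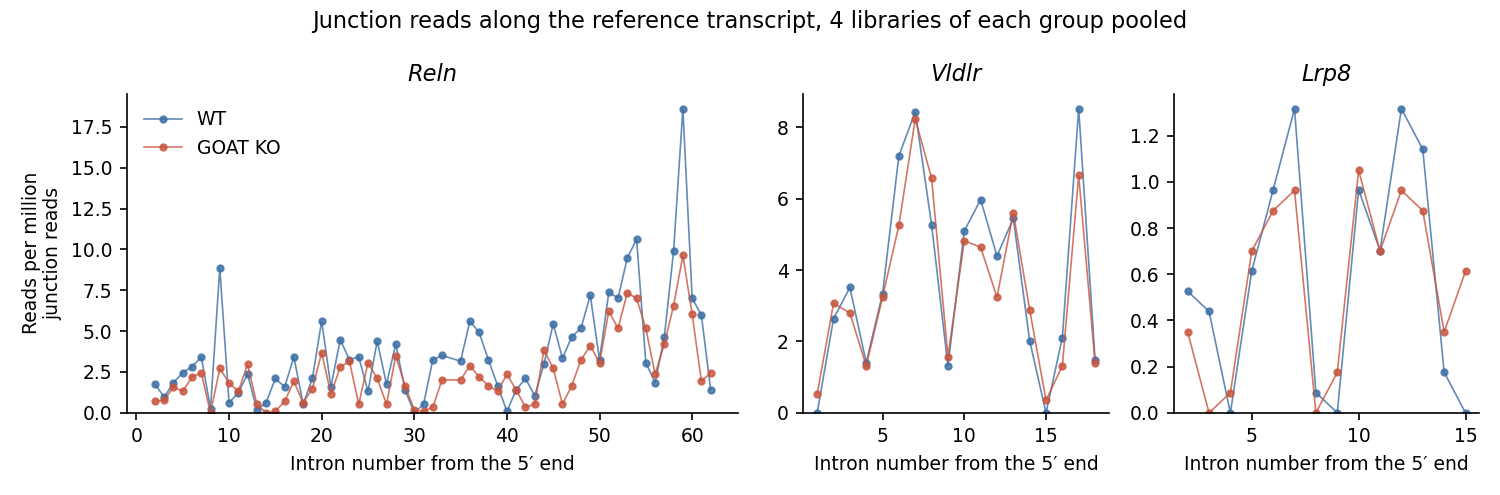
Junction reads (y axis, scaled to the total junction reads of the group as labelled on the axis) on each intron, numbered from the 5′ end (x axis), of *Reln*, *Vldlr* and *Lrp8*, with the 4 libraries of each group pooled. Reads on single introns of *Reln* reach from the second to intron 62 in both groups, with the 311 reads that join exons 63 and 65 not drawn, and the profiles of the groups follow each other along *Vldlr*.

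Both receptor genes had an exon whose use is known to change the receptor. The exon of *Vldlr* at chr19:27246593-27246676, with 84 bases, is known to encode the O-linked sugar domain, a stretch close to the membrane. It is shown whole because reads with it and reads without it were both listed.
Vldlr exon of 84 bases: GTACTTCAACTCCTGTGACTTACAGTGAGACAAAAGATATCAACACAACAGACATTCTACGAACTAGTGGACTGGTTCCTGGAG
Pooled over 8 libraries, 99 reads skipped this exon, 4 entered it and 39 left it. Inclusion, taken as the mean of the reads at both flanks over that mean plus the skipping reads, was 17.8% (Clopper-Pearson 95% interval 11.5 to 25.9). In WT 63 reads skipped it and 24 left it, and in GOAT KO 36 skipped it, 4 entered it and 15 left it. Inclusion in GOAT KO was 20.9% (10.3 to 35.5), which overlaps the interval of 8.55 to 26.3% in WT. The reads entering the exon came from GOAT KO 1139 alone, while reads leaving it were listed in 7 of 8 libraries, so the exact share is uncertain. The intervals cover counting error only, not an entry junction that goes unlisted, and the share may lie outside them. A share taken from the 39 reads leaving and the 99 skipping would be higher than that by the mean of both flanks. Reads without the exon outnumbered those leaving it in 6 of 8 libraries, while WT 1118 had 8 of each and GOAT KO 1146 had 0 without it and 7 leaving it. The exon at chr19:27236240-27236362, with 123 bases, was skipped by 6 reads and included at 89.6% (78.7 to 96.1).

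*Lrp8* had reads on a short exon at chr4:107850104-107850142 that GENCODE annotates only in part. An exon in this place is known to encode a site at which furin-type proteases cut the receptor. A noncoding transcript of *Lrp8* begins within it and holds its last 15 of 39 bases, printed in capitals before the first bases of the next exon (chr4:107850128-107851337, plus strand, intron left out).
Lrp8 short exon, end: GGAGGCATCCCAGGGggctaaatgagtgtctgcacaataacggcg
Pooled over libraries, 9 reads entered this exon through an unannotated splice site, 20 reads left it, and 2 reads skipped it. In WT these were 4, 11 and 1, and in GOAT KO 5, 9 and 1. The *Lrp8* exon at chr4:107870012-107870188, with 177 bases, encodes an insert of the cytoplasmic tail known to bind scaffold proteins. It was left by 3 reads in GOAT KO 1146 and skipped by 7 reads in GOAT KO 1141 and 1146, and WT had no read at either junction.

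The transcripts assembled from each library gave the same picture of depth. No assembled transcript overlapped *Dab1* in any of the 8 libraries. *Reln* was overlapped by 11 to 20 assembled transcripts per library, *Vldlr* by 2 to 6 and *Lrp8* by 0 to 4. The longest covered 44.8% of the *Reln* span, in WT 1119, and 61.8% of the *Vldlr* span, in GOAT KO 1140, so none of these genes was assembled whole.

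The other genes of reelin signalling were compared through 48 genes of a list in 7 groups, and all 48 were tested. None of the 48 was called higher or lower in the libraries labelled GOAT KO, where 0.958% and 0.717% of all genes tested were called. None passed at an adjusted p under 0.05 in edgeR's quasi-likelihood test or in DESeq2, and 1 of the 48 had an unadjusted p under 0.05, against 4.62% of all genes. The median log2 fold change of the listed genes was 0.0018, beside -0.00035 for all genes tested, and they ran from -0.33 to 0.42.

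The gene with an unadjusted p under 0.05 was *Apoe*, which encodes an apolipoprotein that carries cholesterol and binds the receptors. It was measured at 345.1, 286.5, 255.4 and 351.3 CPM in WT 1118 to 1121, and at 281.1, 254.9, 249.4 and 212.7 CPM in GOAT KO 1139, 1140, 1141 and 1146. The groups overlapped, since the value of WT 1120 was under that of 1139. The change of *Apoe* on the log2 scale came to -0.31 (SE 0.112, unadjusted p = 0.0184, adjusted p = 0.983, edgeR), short of the fold required for a call. Without both WT 1120 and GOAT KO 1139, 1 gene was called, *Spon1*, higher at 0.66 (SE 0.235), which encodes F-spondin, a ligand of APOER2. Without GOAT KO 1146 the 1 gene called was *Lpl*, higher at 0.53 (SE 0.228), which encodes lipoprotein lipase. *Lpl* was measured at 426.6 CPM in GOAT KO 1139, against 192.8 to 205.9 in the other 3 libraries labelled GOAT KO and 174.1 to 202.4 in WT, so the difference lay in the 1 library whose fat cell genes stood at 159.4 summed CPM, and the part of fat cells in it was not tested. *Spon1* and *Lpl* were singled out after their values were seen.

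Among the 5 other receptors of the family, log2 fold changes ran from -0.33 to 0.25, and the smallest p was that of *Lrp1b*, a large receptor of the family, at -0.33 (SE 0.236), or -0.50 without GOAT KO 1140 and -0.21 without WT 1121. WT libraries held 1.14 ± 0.202 CPM of it (SD, n = 4) and GOAT KO libraries 0.911 ± 0.217 CPM (SD, n = 4), with overlap between the groups. The 3 genes of receptor handling ran from -0.18 to 0.08, with *Lrpap1*, a chaperone of these receptors, at 0.08 (SE 0.0524), or 0.05 without WT 1118.

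In the groups closest to DAB1, every fold change was small. The 6 Dab adaptors and SRC kinases ran from -0.14 to 0.07 on the log2 scale, and the one with the smallest p was *Src* itself, a kinase of DAB1, at -0.14 (SE 0.0697). The 17 genes downstream of phosphorylated DAB1 ran from -0.10 to 0.16, with *Cdk5r1*, the activator of the kinase CDK5, at 0.16 (SE 0.164), or 0.05 without WT 1118 and 0.27 without WT 1120. The 5 genes of DAB1 turnover ran from -0.01 to 0.12, led by *Elob*, a subunit of the ubiquitin ligase, at 0.12 (SE 0.101), or 0.04 and 0.21 without those same libraries. The 6 proteases that cut reelin ran from -0.10 to 0.15, with *Furin* at -0.10 (SE 0.0607), or -0.06 without WT 1118. None of these 4 groups, nor the 2 groups of receptors and their handling, held a gene with an unadjusted p under 0.05 with all libraries.

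**Figure D5:**
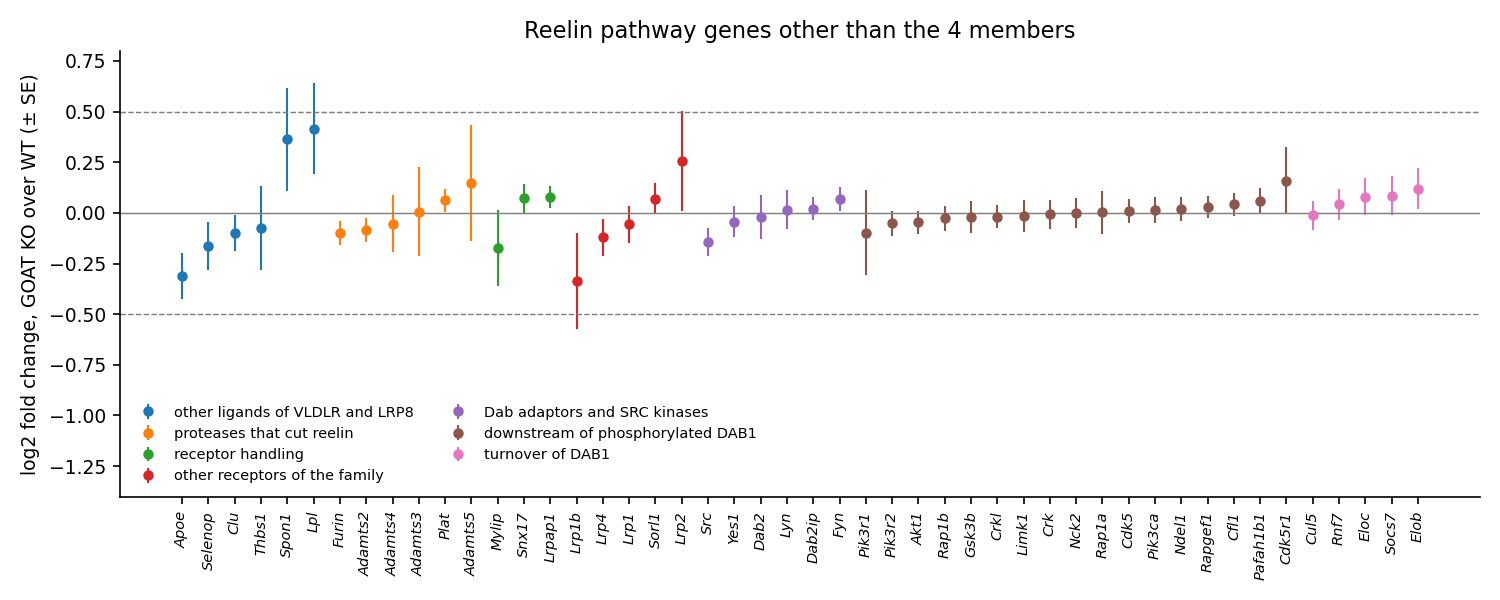
Log2 fold change of GOAT KO over WT (y axis, ± SE from edgeR) of the 48 pathway genes other than the members, in 7 groups by colour and sorted within each group; dashed lines mark 0.5 in either direction. All points lie between the dashed lines, from -0.33 (*Lrp1b*) to 0.42 (*Lpl*).

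*Dab1* and *Lrp8* lie on the same chromosome, 3057 kb apart. Among the 6 tested genes closest to *Dab1*, 3 on either side, none was called higher and 1 was called lower. *Gm12715*, *Gm12716* and *Oma1*, which lie 54.8, 74.6 and 247.5 kb before *Dab1*, had log2 fold changes of 0.36 (SE 0.225), 0.27 (SE 0.157) and 0.03 (SE 0.0766). *Gm12715* was called higher without WT 1119 (0.52) and stood at 0.18 without WT 1118, and *Gm12716* stood at 0.16 without GOAT KO 1146. *C8b*, a complement gene 21.5 kb after it, had 0.21 (SE 0.180), and *Prkaa2*, a catalytic subunit of AMP-activated kinase 285.0 kb after it, had -0.03 (SE 0.099). *C8b* ran from 0.10 without GOAT KO 1140 to 0.32 without WT 1118. *Gm12722*, 629.6 kb after it, was called lower at -0.51 (SE 0.209, unadjusted p = 0.0319, adjusted p = 0.983), and the call was lost without WT 1118 (-0.30), GOAT KO 1139 (-0.51) or GOAT KO 1141 (-0.44). None of the 6 had a fold change near that of *Dab1*, and none had an adjusted p under 0.05 in edgeR or DESeq2.

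The genes whose levels ran most like those of *Dab1* over the 8 libraries were sought among 15458 genes of at least 1 CPM, by the root mean square distance between standardised log2 CPM. They were *Scp2* (distance 0.221), *Tubb2a* (0.231), *Cldn10* (0.325), *Fabp5* (0.358) and *Eno2* (0.365). *Scp2*, a sterol carrier protein gene, lies on the same chromosome as *Dab1* and *Lrp8*, farther along than *Lrp8* (chr4:108043839-108144998). It was measured at 38.0 to 41.7 CPM in WT and 53.8 to 55.2 CPM in GOAT KO, with a log2 fold change of 0.46, short of the fold for a call. Its adjusted p was 0.0299 in edgeR's quasi-likelihood test, 1 of 4 genes of the table under 0.05. *Cldn10*, a claudin of tight junctions, had the largest log2 fold change of these 5, at 0.87, and passed the study's threshold, with an adjusted p of 0.418 in edgeR. Since *Dab1* was picked for its difference between the groups, genes near it share that difference by construction. The nearest to *Reln* were *Brwd3* (0.194) and *C77370* (0.216), to *Vldlr* *Casd1* (0.342) and *Ankle2* (0.352), and to *Lrp8* *Idh1* (0.128) and *Grpel2* (0.142). *Idh1*, the cytosolic isocitrate dehydrogenase, was highest in WT 1120 at 289.7 CPM, as *Lrp8* was.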

How the data were processed

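The ovaries were those of 4 mice labelled WT and 4 labelled GOAT KO. The authors aligned the reads with TopHat2 2.0.14 to the mouse genome (mm10, GRCm38), and they deposited raw read counts for each gene symbol, not normalized, with all libraries in 1 table. The counts of reads per splice junction were deposited by the authors for each library, as were transcripts assembled with StringTie 1.0.4, whose constant score was not used. The authors' percent values of mapped reads, also deposited, were not used. The tool that counted reads on genes and its use of strand are not given in the sources used here.

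Counts were fitted in edgeR 4.0.16 (R 4.3.3) with TMM scaling, the filterByExpr filter (minimum count 10, minimum total 15) and the quasi-likelihood test, on all libraries. Following the study, calls required an unadjusted p under 0.05 and a log2 fold change beyond 0.5 in either direction, with Benjamini-Hochberg adjusted p over all genes tested given beside. The SE is the log2 fold change over the square root of F. The fit was tested on simulated data. Alternatives were RLE size factors, DESeq2 1.42.0, no filter, leaving out WT 1120 and GOAT KO 1139 together, and leaving out each library in turn. For junctions they were a minimum of 2 reads and scaling to gene counts, and for levels per kilobase the longest transcript.

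Introns were derived from the junction blocks and compared with GENCODE vM21 (GRCm38), a later release than the one the authors used, and sequences were taken from its transcripts. TopHat takes the strand of a junction from its splice motif. Intervals and floors cover counting error only, since reads without molecular identifiers are not independent molecules. No pair of libraries of a group agreed within sampling noise (chi-square per gene 4.22 to 27.1), so each counts as 1 replicate. All columns of per-sample values were matched to a sample.

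The members and lists were chosen with earlier results of these data known. The genes named are the 4 members, *Mboat4*, the pathway genes that were called and the one with the smallest p in each group of the list, the 3 closest tested genes to either side of *Dab1*, and the genes nearest in pattern to each member (5 for *Dab1*, 2 for the others). The markers *Cyp17a1*, *Star*, *Hsd3b1* and *Lhcgr* were named besides, after their values were seen. The pathway symbols *Selenop*, *Elob* and *Eloc* stand in the table under older names. The list held 2 further genes that are not reported here, so its counts, medians and ranges cover the other 48 only. The study states neither its test nor which 2 libraries it left out.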

Additional observations from a re-analysis of the deposited data

Results flagged for a closer look

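Dixon's ratio was taken in 42 groups of 4 libraries. These covered the members and their junction reads, the gene with the smallest p in each group of the pathway list, and the neighbours of *Dab1*. *Spon1* and *Lpl* were not among the genes checked. Of the 42 groups 3 passed its 95% critical value, where chance alone passes about 1 group in 20. *Reln* in WT 1120 was far below its group, at 82.5 CPM against 225.9 to 249.9 in the other 3 WT libraries. *Oma1* in WT 1119 was measured at 21.8 CPM against 25.3 to 25.9. *C8b* in WT 1118 was measured at 2.91 CPM against 2.13 to 2.25. The values of *Dab1* passed in neither group.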

How the results depend on the processing

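The log2 fold changes of *Dab1*, *Reln* and *Vldlr* kept their sign and moved by less than the spread between replicates under all 12 alternatives, with ranges over the libraries left out of 2.56 to 2.83, -0.78 to -0.35 and -0.25 to -0.06. *Reln*, not called with all libraries, was called lower in 3 of the 12, without WT 1120 (-0.76), without GOAT KO 1140 (-0.78) and without WT 1120 and GOAT KO 1139 (-0.61). Each of these leaves out its lowest WT library or its highest GOAT KO library, so nothing further was read from the calls. The log2 fold change of *Lrp8* reversed to 0.35 without WT 1120 and to 0.19 without WT 1120 and GOAT KO 1139, and ran from -0.62 to 0.35 over the libraries left out. Across the table, 278 genes were called, 691 of 27459 with no filter on low counts, 398 without WT 1120 and GOAT KO 1139, and 231 to 437 over the libraries left out, the last without WT 1120. At an adjusted p under 0.05 there were 4, and 13 in DESeq2, 7 with no filter, 20 without those 2 libraries, and 3 to 14 over the libraries left out, the last without GOAT KO 1139. Of the listed pathway genes 0 were called, 1 without those 2 libraries, and 0 to 1 over the libraries left out, the last without GOAT KO 1146. The neighbours of *Dab1* had 1 called, and 0 to 2 over the libraries left out, where *Oma1* ran from -0.026 (without WT 1119) to 0.054 and *Prkaa2* from -0.10 to 0.031 (without WT 1118, and 0.023 without GOAT KO 1139); these neighbour alternatives were chosen after seeing the data. On the log2 scale *Reln* per kilobase stood -0.30 from *Vldlr* in WT and 0.39 with the longest transcript, and ran from -0.41 to -0.087 over the WT libraries left out, the last without WT 1120. The share of normalised *Dab1* junction reads in GOAT KO was 89.5% to 95.5% over the libraries left out and not lower than that under the other alternatives. Inclusion of the *Vldlr* exon of 84 bases lay between 15.4% and 20.6%, each time by the mean of both flanks. Except where the filter sets how many genes are tested, the cause of these shifts was not tested. Depth limits *Dab1* in WT (17 or 18 counts) and all single junctions. No paired analysis was possible because the groups share no animal number.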
